A study of Homo sapiens with 6 samples.

Results

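The secreted and membrane mucins of the digestive tract and the trefoil factors that are released with them were followed through 8 gene IDs, 5 for mucins (Muc6, Muc5ac, Muc1, Muc2 and Muc13) and 3 for trefoil factors (Tff1, Tff2 and Tff3). The members were chosen by Ensembl mouse identifier, whatever the version after the dot, and all 8 were found among the 34866 IDs of the deposited table. The table gives no symbols, so each symbol comes from the list of members. The name tables at hand cover human genes, and 0 of the IDs matched them.

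RNA was sequenced from 6 samples labelled as MKN45, a cell line from a human gastric adenocarcinoma that the design text describes as negative for Muc6. The cells were grown in RPMI1640 medium with serum and antibiotics, and all 6 samples received an adenovirus that delivers a short hairpin RNA (shRNA). In 3 samples the hairpin was a control, and in the other 3 it was directed against GOLPH3, a Golgi protein that helps to hold glycosyltransferases in that organelle. The comparison asks how expression differs between these groups. The labels do not give the hairpin sequences, their number, the time after infection or whether numbered samples were separate cultures, so the spread that a test measures is that of these samples and may be technical.

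Mucins are large glycoproteins whose serine- and threonine-rich repeats are covered with O-linked sugars in the Golgi. The gel-forming mucins are stored in granules and released as mucus, while the transmembrane mucins stay on the apical surface of epithelial cells. Trefoil factors are small, disulfide-bonded peptides that are secreted with mucins and are known for helping the epithelium to close after injury. In the stomach, surface cells typically make MUC5AC with TFF1, and gland mucous cells make MUC6 with TFF2. MUC2 and TFF3 are products of intestinal goblet cells and appear in the stomach in intestinal metaplasia.

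The table held almost no counts for these 8 IDs in either group. Of the 48 member values, 8 IDs in 6 libraries, 47 were 0. The exception was an estimated count of 1.03 for Tff1 in GOLPH3 shRNA replicate 1. All members together thus received 1.03 of 36233267 estimated counts. No direction of change can be given for any of these members from these libraries, and other mucins were not examined.

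Among the gel-forming mucins, Muc6 (ENSMUSG00000048191.15), the gland mucin named in the design text, was listed at 0 in control replicates 1, 2 and 3 and at 0 in GOLPH3 shRNA replicates 1, 2 and 3. Muc5ac (ENSMUSG00000037974.16), the mucin of gastric surface cells, was listed at 0 in the same 6 libraries. Muc2 (ENSMUSG00000025515.15), the main mucin of intestinal goblet cells, was also listed at 0 in each library. The design text calls the line negative for Muc6 alone, and the table does not set Muc6 apart from the other member mucins, whose IDs gave the same value.

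The transmembrane mucins among the members gave the same picture. Muc1 (ENSMUSG00000042784.9), which is carried on the surface of most simple epithelia and signals through its cytoplasmic tail, was listed at 0 in all 3 control and all 3 GOLPH3 shRNA libraries. Muc13 (ENSMUSG00000022824.12), a transmembrane mucin of the gastric and intestinal epithelium, was likewise listed at 0 in all 6.

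Among the trefoil factors, Tff2 (ENSMUSG00000024028.7), the gland trefoil peptide, and Tff3 (ENSMUSG00000024029.4), the goblet cell peptide, were listed at 0 in every library. Tff1 (ENSMUSG00000024032.6), the surface cell peptide, was listed at 0 in control replicates 1, 2 and 3 and in GOLPH3 shRNA replicates 2 and 3. Its 1.03 estimated counts in GOLPH3 shRNA replicate 1 correspond to 0.207 CPM (the count divided by its library total, on a scale shared by all libraries). The groups therefore shared the value 0, and Tff1 stood above it in 1 of 6 libraries.

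**Figure D1:**
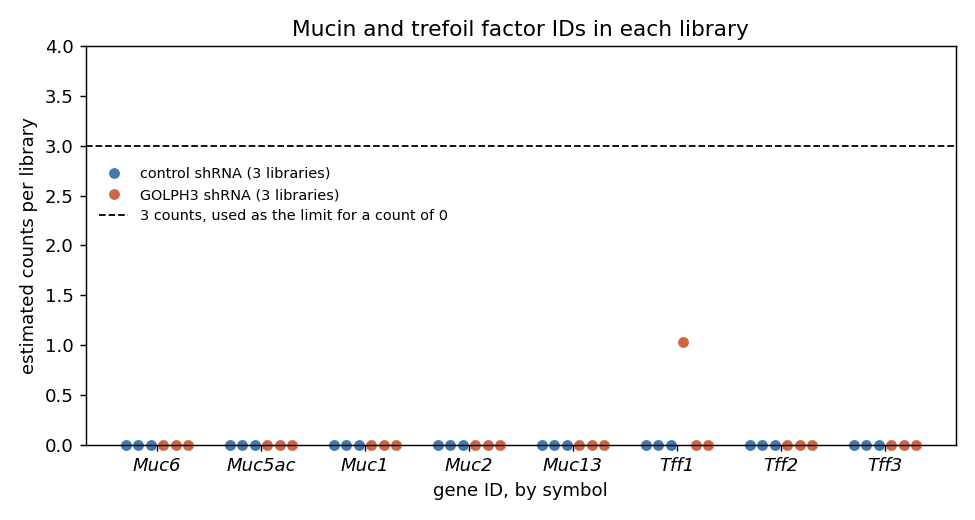
Estimated counts (linear axis) of the 8 mucin and trefoil factor IDs, with 1 point for each of the 3 control shRNA (blue) and 3 GOLPH3 shRNA (orange) libraries and a dashed line at 3 counts. All points lie at 0 except Tff1 in GOLPH3 shRNA replicate 1, at 1.03, which is below the line.

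Single counts like that of Tff1 were frequent in the table. After rounding, 1207 of the 18051 IDs with any count, or 6.69%, had 1 count in 1 library and 0 in all others, as Tff1 did. The number of such IDs per library ran from 175 in GOLPH3 shRNA replicate 1, the library of the Tff1 count and the smallest of the 6, to 232 in control replicate 1. An exact 95% Poisson interval for 1 count in that library reaches from 0.00509 to 1.12 CPM, for counting error alone. The mean Tff1 level was 0.0691 ± 0.12 CPM with GOLPH3 shRNA (SD, n = 3), all of it from that library, and 0 in the controls. An exact permutation test cannot weigh this difference. With a count in 1 library only, every split of 3 against 3 samples gives the same absolute difference. Without GOLPH3 shRNA replicate 1, all 8 members were at 0 (0 of 8 with a count). No fold is given, since both groups were below the limit set by 3 counts.

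The value for Tff1 is not whole. In the same library 1157 IDs had a value between 0.5 and 1.5, and 788 of these were exactly 1. The method of estimation is not given in the sources used, and whether the Tff1 estimate includes part of a read shared with another gene model was not tested.

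The depth of the libraries sets what these zeros can exclude. The control libraries held between 6287037 and 7355140 estimated counts and the GOLPH3 shRNA libraries between 4977645 and 5676169. A count of 0 allows up to about 3 counts, which is 0.408 to 0.477 CPM in a control library and 0.529 to 0.603 CPM in a GOLPH3 shRNA library. Summed over a group, the same 3 counts amount to 0.149 CPM in the controls and 0.186 CPM with GOLPH3 shRNA. These limits cover counting error only, and they apply to reads that the authors' processing could assign to the ID. Because mucin transcripts are generally long and trefoil transcripts short, the same number of counts stands for fewer mucin transcripts than trefoil transcripts. A difference between the groups below these levels was not detectable at this depth.

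These limits lie below the level of every ID that was tested, which follows from the filter on low counts (minimum count 10). The highest of them, 0.603 CPM, was exceeded by the mean level of 12898 IDs, or 37% of the table, and by all 11400 IDs that had enough counts to be tested. The median tested ID stood at 24.5 CPM, 40.7 times that limit, and the lowest at 1.12 CPM. The limit of 0.603 CPM is for a single library, while these levels are means over 6. Summed over all 6 libraries, 3 counts amount to 0.0828 CPM. At the other end, 16727 IDs, or 48% of the table, were at exactly 0 in all 6 libraries, as 7 of the 8 members were. Values of 0 were thus common among all IDs, and they are given here as a description of the members with no test.

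**Figure D2:**
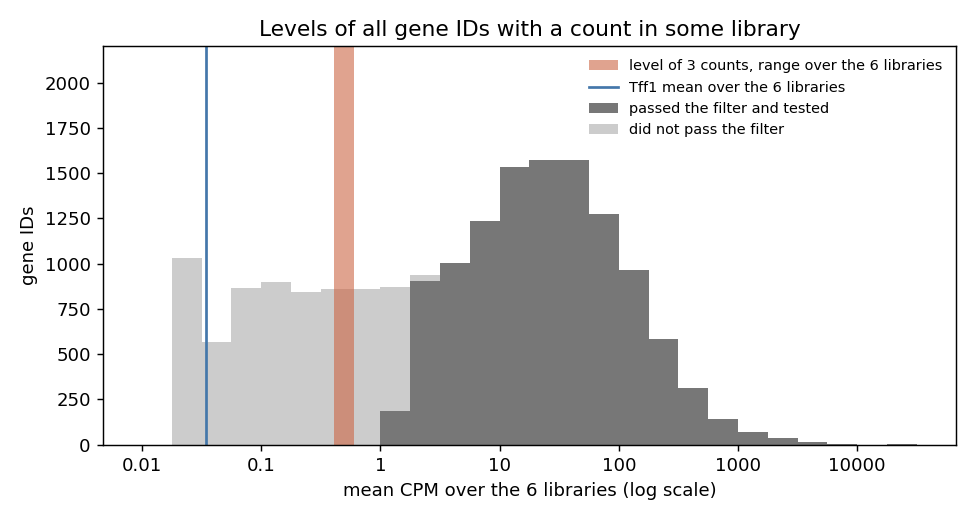
Number of gene IDs (linear axis) by mean CPM over the 6 libraries (log axis), for the 18051 IDs with a rounded count in some library, in dark grey those tested and in light grey, stacked above, those that did not pass the filter. The blue line marks the mean of Tff1 over the 6 libraries, far to the left of the tested IDs. The orange band is the level of 3 counts in single libraries, 0.408 to 0.603 CPM, and not a limit for means over the 6 libraries. The members at 0 have no place on a log axis.

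None of the members (0 of 8) passed the filter on low counts, so none was tested for a difference between the groups. In the same comparison 33.9% of the 11400 tested IDs were called (edgeR's quasi-likelihood F test, with a Benjamini-Hochberg adjusted p below 0.05). Of these, 1840, or 16.1% of the tested IDs, were higher with GOLPH3 shRNA and 2030, or 17.8%, were lower. The members' count of 0 calls cannot be read against that share, since no member entered the test. With no filter, Tff1 was the only member with a rounded count, and edgeR gave it an adjusted p of 0.579 and an unadjusted p of 0.361 among 18051 IDs. DESeq2 without a filter gave Tff1 an unadjusted p of 0.753 and no adjusted value. Over all 18051 IDs, 5596 had an unadjusted p below 0.05 with edgeR and 4449 with DESeq2. The other 7 members had no count to test, so these results without a filter rest on Tff1 alone. Its 1 rounded count could not lead to a call, so these p values say nothing about a difference between the groups.

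The labels and the table name different species, and this bears on every zero above. The labels give human cells, while the submitters' processing notes name the mouse build mm10 and every row name is a mouse identifier. The repeat regions of mucins are known to differ greatly between human and mouse. The table alone does not show whether the sequenced reads were human reads assigned to mouse gene models or reads from mouse cells under a human label. For human reads, few transcripts of these genes in the cells and transcripts whose reads were not assigned to the mouse models cannot be told apart from this table. For mouse reads, the zeros would describe mouse cells and not MKN45. In bulk RNA, fewer cells that make a product and less RNA in each cell cannot be told apart either. The zeros are therefore values of the deposited mouse IDs and not a measurement that MKN45 lacks the human mucins or trefoil factors.

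Some of the members are neighbours in the human genome. In RefSeq's GRCh38.p14 annotation, TFF3, TFF2 and TFF1 follow each other with no other coding gene between them, and MUC2 lies next to MUC5AC. MUC6 is separated from MUC2 by 1 coding gene model without a name, while MUC1 and MUC13 have none of the other members beside them. The neighbours, counting Muc6 (Tff1, Tff2, Tff3, Muc6, Muc2 and Muc5ac), and Muc1 and Muc13 gave the same zeros, apart from the single Tff1 count.

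The other mucins, the mucus packaging genes, the trefoil binding partners, the gastric gland products, the epithelial and other cell type markers, and GOLPH3 itself, whose level would check the knockdown, were listed by symbol and were not analysed here, since no table used here pairs mouse IDs with symbols. Whether the IDs of epithelial markers such as keratins and cadherins carry counts in these libraries was not tested for the same reason. No gene with a pattern like that of a member is named, because the rule for it needed a member that passed the filter. The libraries themselves were similar across the 11400 tested IDs, with Pearson correlations of log2 CPM from 0.971 to 0.98 within a group and from 0.948 to 0.959 between groups, across genes that are not independent replicates, and none stood apart or duplicated another.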

How the data were processed

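The values are estimated counts by gene ID, which the authors deposited as 1 table with a column for each of the 6 libraries. Per the labels' protocols, messenger RNA libraries were made with a stranded kit. The submitters' processing notes name mm10; which programs aligned and counted the reads, with which annotation, strand setting and filters, is not given in the sources used. Member values are the deposited estimates, and CPM are estimates divided by the library total. For tests, estimates were rounded, IDs kept by filterByExpr of edgeR 4.0.16 (minimum count 10) in R 4.3.3, and groups compared with TMM scaling and the quasi-likelihood F test, adjusted over all tested IDs. This fit was tested on simulated data for the IDs that passed the filter, which include no member. Limits for a count of 0 use 3 counts. The alternatives were DESeq2 1.42.0, limma-voom (limma 3.58.1), other scalings and filters, unrounded counts, thinning, a replicate block and each library left out. All 8 members were to be named, together with called genes of lists fixed by symbol, which could not be matched. The members and lists were chosen with earlier results of these data known.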

Additional observations from a re-analysis of the deposited data

How the results depend on the processing

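The number of called members had no way to vary with the statistical settings, so it is no measure of how stable the result is. In each alternative run 0 members were called, in those with a filter because no member was tested. Without a filter Tff1 was the only member tested, and its single count could not lead to a call. The number of members with a count was 1 with and without rounding and after thinning (chosen after the data were examined), and 0 to 1 when each library was left out in turn, the 0 arising without GOLPH3 shRNA replicate 1. Over all tested IDs, other tests, scalings and filters gave between 1736 and 1922 higher and between 1830 and 2222 lower calls, and leaving out each library gave 1425 to 1665 higher and 1644 to 1929 lower. A replicate block in the fit gave 1842 higher and 2045 lower calls and 0 called members. Deviations of same-numbered samples from their group means correlated at 0.032, 0.09 and 0.044, and those of differently numbered samples at -0.086 to 0.037. The values are small, so the numbers were not taken as pairs, and the block is given as the alternative. Log2 fold changes of the members are not given, and the lists of related genes were not run for want of symbols. Depth limits each zero to the levels given above, and the assignment of reads to mouse gene models limits them in a way the table does not measure.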
